A study of Mus musculus with 30 samples.

Results

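The genes described here encode the main fibrillar collagens of connective tissue and the small leucine-rich proteoglycans that coat their fibrils, together with matrix Gla protein. They were chosen with earlier results of these data known. Taken was every probe set that the array's annotation gave to Col1a1, Col1a2, Col3a1, Dcn, Lum, Fmod, Bgn or Mgp alone. This gave 14 probe sets for 8 genes, out of 12422 probe sets and 8251 named genes tested. Transcripts were measured on Affymetrix mouse arrays in 3 pools of motoneurons laser-captured from the spinal cords of 5 adult mice, all of which had undergone a sham operation; the strain, sex and exact age were not given in the sources used here. The IML pool came from the intermediolateral column, where autonomic preganglionic motoneurons lie, and the LMN and MMN pools were lateral and medial somatic motoneurons, which innervate skeletal muscle. Each pool was 400 captures per animal, its RNA was divided into 2 amplified targets, and each target went on its own array, so that there were 10 arrays and 5 samples per pool. Every value below is a log2 intensity averaged over the 2 arrays of a sample unless stated otherwise, and n counts animals.

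Type I collagen is a trimer of the chains encoded by Col1a1 and Col1a2, and type III collagen is a trimer of the Col3a1 chain; both are secreted as procollagens, trimmed and assembled into banded fibrils. Decorin (Dcn), biglycan (Bgn), lumican (Lum) and fibromodulin (Fmod) are small secreted proteoglycans with leucine-rich repeats. They bind collagen fibrils and limit their width, and decorin and biglycan also bind growth factors of the TGF-beta family. Matrix Gla protein (Mgp) is a small vitamin K-dependent protein that holds back calcification of soft tissue. In the central nervous system these genes are best known from fibroblasts of the meninges and of the walls of larger vessels, and they are not known as neuronal genes.

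RefSeq promoter sequences of the GRCm38.p6 assembly were at hand for 4 of the 8 genes, Col1a2, Col3a1, Fmod and Bgn. They are shown because all 4 genes were higher in IML than in LMN samples, as described below, and they let a reader see what the starts of the 4 genes share. Each is the 250 bases ahead of the annotated start of the gene, on the plus strand, and capitals mark motif matches on either strand. The motifs searched were the CCAAT box, named after its letters, the TATA box, spelled TATAAA here, and the GC box. The GC box was spelled GGGCGG, and a match to it on the opposite strand shows its complement read backwards. The windows are chr6:4505368-4505617 for Col1a2, chr1:45311288-45311537 for Col3a1, chr1:134037004-134037253 for Fmod and chrX:73483351-73483600 for Bgn.
Col1a2: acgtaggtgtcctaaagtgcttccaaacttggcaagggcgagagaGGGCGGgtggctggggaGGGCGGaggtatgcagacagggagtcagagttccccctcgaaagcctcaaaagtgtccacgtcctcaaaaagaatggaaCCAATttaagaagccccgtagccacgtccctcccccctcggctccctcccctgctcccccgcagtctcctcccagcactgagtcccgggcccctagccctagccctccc
Col3a1: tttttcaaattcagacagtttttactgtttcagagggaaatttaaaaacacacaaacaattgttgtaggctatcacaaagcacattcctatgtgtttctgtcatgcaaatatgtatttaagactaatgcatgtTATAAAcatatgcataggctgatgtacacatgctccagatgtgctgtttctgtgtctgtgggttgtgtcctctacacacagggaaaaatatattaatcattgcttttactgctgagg
Fmod: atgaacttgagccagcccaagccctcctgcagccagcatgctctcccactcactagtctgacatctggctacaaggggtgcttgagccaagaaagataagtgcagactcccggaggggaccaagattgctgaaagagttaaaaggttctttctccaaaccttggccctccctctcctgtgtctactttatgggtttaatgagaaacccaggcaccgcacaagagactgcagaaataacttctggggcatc
Bgn: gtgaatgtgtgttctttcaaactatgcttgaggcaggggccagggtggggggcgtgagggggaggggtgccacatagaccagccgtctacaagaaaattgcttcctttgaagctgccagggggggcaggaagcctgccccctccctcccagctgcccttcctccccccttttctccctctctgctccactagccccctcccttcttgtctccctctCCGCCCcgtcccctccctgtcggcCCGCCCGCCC
The Col1a2 window held a CCAAT match from 109 to 105 bases ahead of the start and 2 GC boxes, beginning at 205 and 188. The Col3a1 window held 1 TATA match, from 117 to 112 bases ahead, and the Bgn window held 3 GC boxes on the opposite strand, beginning at 34, 10 and 6, the last 2 of which overlap. The Fmod window held none of the 3. No motif was found in more than 2 of the 4 windows. Among 32851 promoters of the same length, 33.8% held a CCAAT match, 12.4% a TATA match and 32.7% a GC box. The base composition also parted the 4 windows, with a GC content of 35.2% for Col3a1, 51.2% for Fmod, 62.0% for Col1a2 and 64.4% for Bgn, against a median of 52.4% over all promoters.

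The median intensity of an array ran from 131.69 to 145.908, and the lowest correlation between the 2 arrays of a sample was 0.983. Of 12 motoneuron markers listed, 7 were measured, and their summed linear intensity was 5097.83 to 8252.96 in IML, 10063.7 to 18468 in LMN and 8517.6 to 12414.5 in MMN samples. Slc18a3, the vesicular acetylcholine transporter, was at 7.18 ± 0.28 in IML samples, 8.73 ± 1.17 in those of LMN and 8.30 ± 1.01 in those of MMN (mean and SD of 5 animals). There were no detection calls to part low values from background. In captured tissue of this kind, fewer cells of a type and less RNA per cell cannot be told apart. The samples of animal 2 were the highest of the 5 animals for most of the 8 genes in LMN and in MMN. In IML, animal 2 was above the mean over 15 samples for all 8 genes, but highest only for Fmod.

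Type I collagen transcripts were highest in IML and lowest in LMN samples. In animals 1 to 5, in that order, Col1a1 was at 9.65, 10.29, 12.00, 11.15 and 10.75 in IML, at 8.63, 9.31, 11.08, 8.52 and 8.93 in LMN and at 9.10, 10.24, 11.01, 9.12 and 8.97 in MMN. Animal 3 was the highest animal in all 3 pools and the ranges overlapped, while IML was above both somatic pools in each of the 5 animals. Col1a1 was 2.78-fold higher in IML than in LMN (log2 difference 1.48 ± 0.26, SE, n = 5, adjusted p = 0.00716 in limma). Col1a2, the second chain of the same trimer, was at 9.03, 10.39, 11.59, 9.75 and 10.42 in IML, at 7.79, 9.24, 10.34, 7.06 and 7.92 in LMN and at 9.21, 10.21, 10.55, 8.41 and 8.65 in MMN. LMN was the lowest pool in all 5 animals and IML the highest in 4, animal 1 being the exception. By its brighter probe set, Col1a2 was 3.40-fold higher in IML than in LMN (1.77 ± 0.27, adjusted p = 0.00335), the largest of the 8 differences from LMN. Its other probe set was not called (-0.01 ± 0.06, adjusted p = 0.923).

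Col3a1 followed the same order of pools. It was at 7.97, 9.24, 10.01, 8.06 and 9.03 in IML, at 7.06, 8.16, 7.02, 6.66 and 7.03 in LMN and at 7.81, 9.28, 7.33, 7.76 and 7.94 in MMN. Only the LMN sample of animal 2 reached into the range of IML, and the other LMN samples lay at or below 7.06. Col3a1 was 3.19-fold higher in IML than in LMN (1.68 ± 0.32, adjusted p = 0.00984). Animal 3 had one of the lower Col3a1 values in both somatic pools and the highest in IML, whereas for both type I chains it was the highest animal in every pool.

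The 4 proteoglycan genes were also higher in IML than in LMN. Lum, whose product lumican keeps corneal fibrils narrow, was at 8.13, 10.07, 10.87, 9.38 and 10.15 in IML, at 7.67, 9.57, 9.03, 6.15 and 7.41 in LMN and at 8.02, 10.18, 9.03, 6.94 and 8.12 in MMN. Its highest and lowest samples, IML of animal 3 and LMN of animal 4, stood 4.71 apart, the widest span among the 8 genes, and the pools overlapped. Lum was 3.37-fold higher in IML than in LMN (1.75 ± 0.38, adjusted p = 0.0182). Dcn was at 9.68, 11.24, 11.54, 10.17 and 11.40 in IML, at 9.77, 10.56, 8.38, 8.16 and 9.12 in LMN and at 10.25, 11.73, 8.75, 8.99 and 9.56 in MMN. In animal 1 it was lowest in IML and in animal 2 highest in MMN, and decorin was the only one of the 8 genes that was lower in IML than in LMN in any animal. Dcn was 3.05-fold higher in IML than in LMN (1.61 ± 0.44, adjusted p = 0.0426), higher in 4 of 5 animals, and kept its call in 8 of 16 alternatives. It was lost without animal 3 (1.22, adjusted p = 0.132), animal 4 (1.51, 0.138) or animal 5 (1.44, 0.165) and without the LMN sample of animal 2 alone (1.66, 0.0777), and kept without the whole of animal 2 (1.84, 0.0469).

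Fmod and Bgn varied less between animals in LMN and in MMN than Lum and Dcn did. Fmod, which encodes fibromodulin, was at 8.77, 10.05, 9.69, 8.51 and 9.12 in IML, at 7.81, 8.94, 7.55, 7.68 and 7.97 in LMN and at 8.84, 9.98, 8.27, 7.89 and 8.60 in MMN. Bgn, which encodes biglycan, was at 9.12, 10.47, 11.01, 9.01 and 10.14 in IML, at 8.28, 9.39, 8.70, 8.19 and 8.34 in LMN and at 9.13, 10.53, 9.06, 8.81 and 9.01 in MMN. For both genes LMN was lowest in all 5 animals, and only animal 2 brought LMN values into the IML range. Fmod was 2.36-fold higher in IML than in LMN (1.24 ± 0.19, adjusted p = 0.00369), and Bgn was 2.59-fold higher (1.37 ± 0.25, adjusted p = 0.00836).

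Mgp had the smallest mean difference between IML and MMN of the 8 genes, and was not tested against the others. It was at 7.52, 8.12, 7.44, 6.88 and 8.47 in IML, at 5.95, 7.49, 5.80, 5.77 and 6.48 in LMN and at 7.50, 9.01, 6.58, 6.79 and 7.73 in MMN. LMN was lowest in all 5 animals. IML and MMN were close on average but not in every animal, with IML less MMN at 0.02, -0.89, 0.86, 0.09 and 0.73 in animals 1 to 5. Mgp was 2.62-fold higher in IML than in LMN (1.39 ± 0.21, adjusted p = 0.00329), while IML exceeded MMN by 0.16 ± 0.21 (adjusted p = 0.822), with a 95% interval from -0.29 to 0.62. Its 1 probe set has the suffix _s_at, which marks probes that can bind related transcripts.

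**Figure D1:**
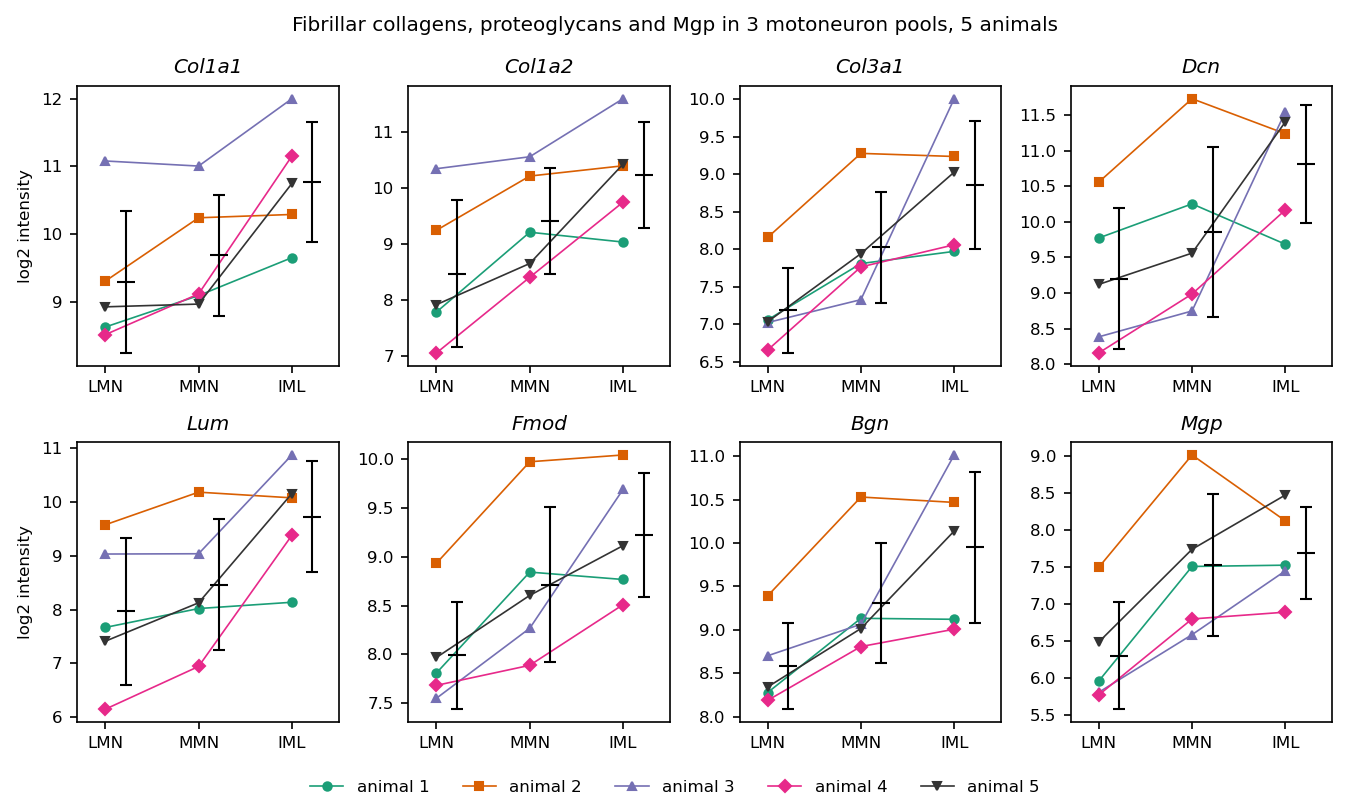
Log2 intensity of the brightest probe set of each of the 8 genes (vertical axes, scaled per gene) in LMN, MMN and IML samples, with 1 line per animal and the mean and SD over 5 animals beside each pool. The mean rises from LMN through MMN to IML in all 8 panels, and the lines of the animals lie far apart, with animal 2 or animal 3 on top in most panels.

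Counted over genes, each by its brightest probe set, all 8 passed the threshold of an adjusted p under 0.05 as higher in IML than in LMN, with a median difference of 1.54, against -0.02 over all probe sets. In this comparison limma called 5.46% of all probe sets higher and 3.53% lower. For Col1a2 the brightest probe set led the other by a small margin (a mean of 9.37 against 9.31). It was the brighter of the 2 in IML and MMN and the dimmer in LMN (8.47 against 9.33), so this choice drew on the IML values tested. By the other probe set Col1a2 was not called against LMN (-0.01 ± 0.06, adjusted p = 0.923). In the comparison of IML with the mean of LMN and MMN, 7 of 8 genes were called higher, with a median of 1.27 against -0.0076 over all probe sets, where 3.44% of all probe sets were called higher and 2.09% lower. At an unadjusted p under 0.05, which 20.7% of all probe sets had in this comparison, all 8 were higher, against 10.9% of all probe sets. The gene not called was Dcn (1.28 ± 0.38, adjusted p = 0.0741). For the genes called, the differences from the mean of the somatic pools were 1.26 ± 0.27 for Col3a1 (adjusted p = 0.0248), 0.87 ± 0.17 for Fmod (0.0145), 1.01 ± 0.22 for Bgn (0.0239) and 0.78 ± 0.18 for Mgp (0.0318), besides 1.28 ± 0.23 for Col1a1 (0.0112), 1.30 ± 0.23 for Col1a2 (0.0115) and 1.51 ± 0.33 for Lum (0.0255). All the comparisons share samples. The 8 genes were chosen with earlier results of these data known, so their counts beside the shares of all probe sets are a description and no test. Mgp kept its call in 7 of 15 alternatives, and lost it without animal 1 (adjusted p = 0.0879), with a random block (0.0561) and with technical set 2 alone (0.0608), among others. The 7 calls depended on single animals. Without animal 1 there were also 7, with Dcn in place of Mgp. Called were 4 genes without animal 3 (Col1a1, Col1a2, Col3a1 and Fmod), 4 without animal 4 (Col1a1, Col1a2, Fmod and Bgn) and 0 without animal 5, where the 8 differences were still 0.63 to 1.29 and the lowest adjusted p was 0.0675. Against LMN, 6 genes were called without animal 3, 6 without animal 4 and 4 without animal 5 (Col1a1, Col1a2, Fmod and Mgp). With values under 32 raised to 32, 2 genes were called against the somatic mean (Col1a1 and Col1a2). No array value of the brightest probe sets of the 8 genes lay under 32, and their differences were unchanged. Their standard errors rose, for Lum from 0.33 to 0.38. Without the animal as a block none of the 8 was called in either comparison. There the differences were the same, the standard errors against the somatic mean were 0.33 to 0.59 in place of 0.17 to 0.38, and the lowest adjusted p was 0.145 against the somatic mean and 0.065 against LMN.

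IML and MMN were closer. All 8 genes were on average higher in IML, against 52.6% of all probe sets. Their differences ran from 0.16 to 1.26 with a median of 0.83. Called by limma were 0 of 8, in a comparison that called 0.233% of all probe sets higher and 0.113% lower. At an unadjusted p under 0.05, 6 of the 8 were higher, against 6.84% of all probe sets. Col1a1 differed by 1.08 ± 0.26 (adjusted p = 0.137), the only one of the 8 that was higher in IML in all 5 animals. Lum differed by 1.26 ± 0.38 (adjusted p = 0.233) and Col1a2 by 0.83 ± 0.27 (adjusted p = 0.255). The 95% intervals reached up to 2.10 for Lum and 1.66 for Col1a1, beyond the 1.75 and 1.48 by which these 2 genes differed between IML and LMN.

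Between the somatic pools, all 8 genes were on average lower in LMN than in MMN, against 42.2% of all probe sets. The differences of LMN less MMN ran from -1.22 to -0.39 with a median of -0.73, against 0.02 over all probe sets. With 0.0322% of all probe sets called lower, 0 of the 8 genes were called by limma, and 5 had an unadjusted p under 0.05, against 5.11% of all probe sets that were lower at that level. Mgp came closest, at -1.22 ± 0.21 (adjusted p = 0.0844), followed by Fmod at -0.73 ± 0.19 (adjusted p = 0.183) and Col1a2 at -0.94 ± 0.27 (adjusted p = 0.211). For 7 of the 8 genes LMN was below MMN in every animal, the exception being Col1a1, which was 0.08 higher in LMN in animal 3. When only the LMN and MMN samples entered the fit, 3 genes were called lower in LMN, namely Mgp (adjusted p = 0.0204), Col3a1 (0.0344) and Bgn (0.0344).

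The order of the pool means was LMN, MMN, IML for all 8 genes. Over 40 combinations of a gene and an animal, LMN was the lowest pool in 38 and IML the highest in 31, and the full order held in 30. The genes varied together within the same animals, so these are not 40 separate observations. The matching shares over all probe sets were not counted. In the fit of all samples none of the 8 genes passed the test between neighbouring pools in this order. By their brightest probe sets, all 8 passed it between the ends of the order, IML and LMN.

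**Figure D2:**
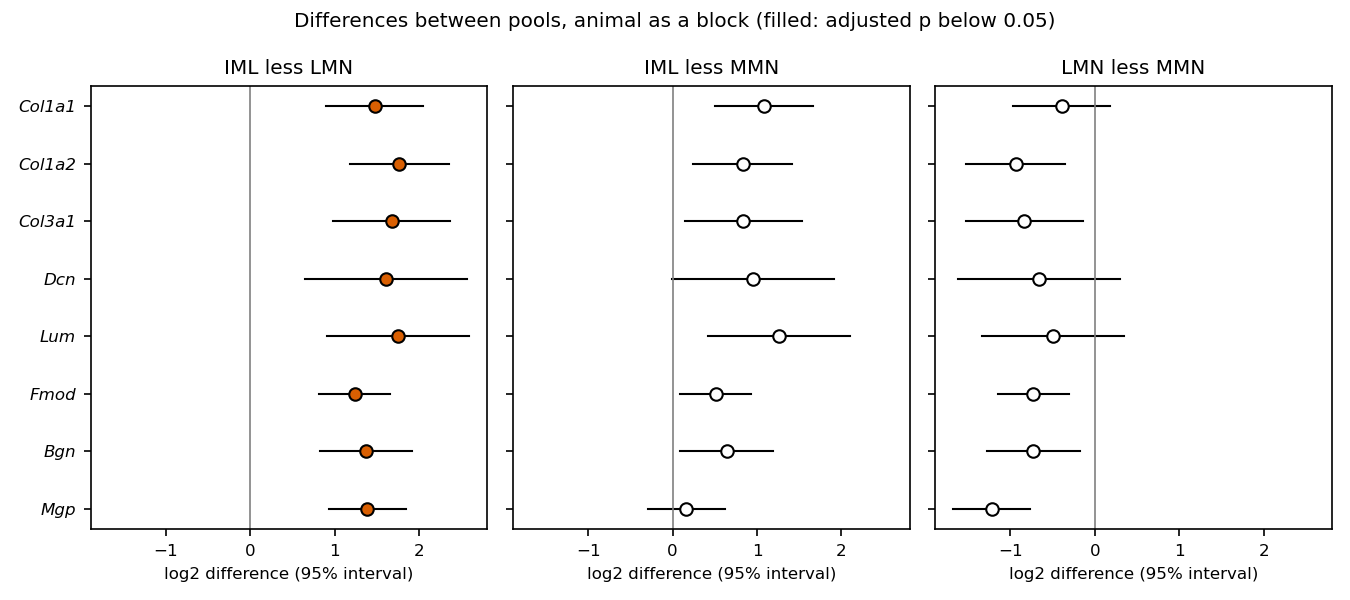
Log2 differences between pools for the 8 genes (points, from the model with the animal as a block, n = 5) with 95% intervals (lines), filled where the adjusted p was under 0.05. All 8 points are filled for IML less LMN, and none for IML less MMN or LMN less MMN, where the points lie above and below 0 respectively.

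In 5 of the 8 genes there was more than 1 probe set, and the probe sets of a gene did not always show the same difference. The dimmer Col1a1 probe set (94305_at) was higher in IML than in the mean of LMN and MMN by 0.76 ± 0.13 (adjusted p = 0.00925), as was the second Col3a1 probe set (161984_f_at, 1.45 ± 0.32, adjusted p = 0.0269). For the latter alone among the 14 probe sets, all IML values lay above all LMN values. The share of all probe sets with such a gap was not counted. The third Col3a1 probe set (102990_at), at 5.13 on average the dimmest of the 14, differed by 0.56 ± 0.25 (adjusted p = 0.238). Col1a2 had a second probe set (161156_r_at) at 9.32 ± 0.15 in IML samples, 9.33 ± 0.20 in those of LMN and 9.26 ± 0.13 in those of MMN (mean and SD of 5 animals), a difference of 0.02 ± 0.05 (adjusted p = 0.873); the first probe set of the gene had differed by 1.30. The second Fmod probe set (161373_r_at) differed by -0.06 ± 0.06 (adjusted p = 0.651) and the second Bgn probe set (162347_f_at) by 0.16 ± 0.06 (adjusted p = 0.181). Over all 14 probe sets, 9 were called higher than the somatic mean and 10 higher than LMN, beside 3.44% and 5.46% of those tested. The sources used here give no probe sequences, so where these probe sets lie in the transcripts was not analysed here. Whether those with the suffix _r_at or _f_at also bind other transcripts was not analysed either.

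The animals differed from each other about as much as the pools did. In the brightest probe sets the animal took 27.1% (Col3a1) to 55.2% (Col1a2) of the sum of squares over the 15 samples, and the pool took 31.8% (Lum) to 52.4% (Col3a1). Averaged over the 3 pools, animal 2 was the highest for 6 genes and animal 3 for the other 2, Col1a1 and Col1a2. Animal 4 was the lowest for 7 genes, and animal 1 for Col1a1. The gap between the 2 arrays of a sample was small beside this: its median over samples was 0.0608 for Bgn to 0.166 for Col3a1, and the largest gaps were 0.886 for Fmod in MMN of animal 5, 0.870 for Lum in IML of animal 4 and 0.703 for Bgn in MMN of animal 5.

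The excess in IML was also uneven across animals, and not in the same way for every gene. In animal 3, IML exceeded the mean of LMN and MMN by 2.98 for Dcn, 2.83 for Col3a1, 2.13 for Bgn and 1.78 for Fmod, in each case the largest of the 5 animals. In animal 3 the type I chains differed by 0.96 for Col1a1 and 1.14 for Col1a2, and their largest values were 2.33 in animal 4 for Col1a1 and 2.14 in animal 5 for Col1a2. Lum went with the type I chains, with 2.83 in animal 4 and 2.38 in animal 5. The differences ran from -0.33 to 0.79 in animal 1 and from -0.13 to 0.67 in animal 2, below the mean of the gene except for Mgp in animal 1. Of the 40 values, which are not separate observations, only 2 were below 0, Dcn in animal 1 and Mgp in animal 2.

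**Figure D3:**
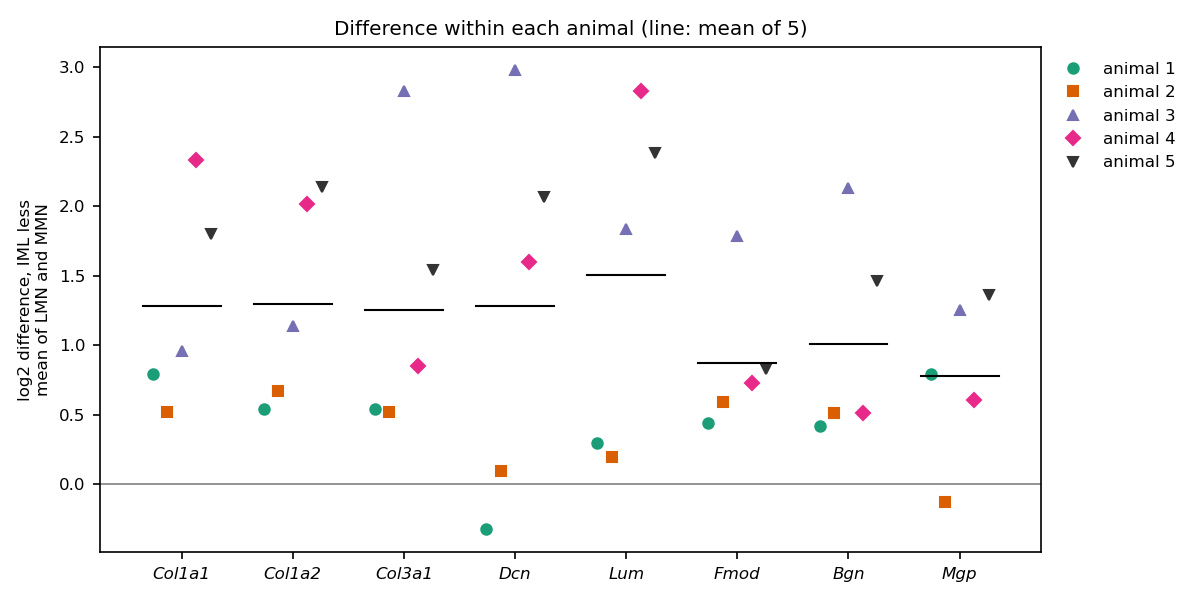
Log2 difference between IML and the average of the somatic pools (vertical axis) within each of the 5 animals for the 8 genes, with a line at the mean of 5. Animal 3 is highest for Col3a1, Dcn, Fmod and Bgn, animals 4 and 5 are highest for Col1a1, Col1a2 and Lum, and animals 1 and 2 lie near 0 for Dcn and Lum.

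Correlations among the 8 genes, taken over the 15 samples as a description, had a median of 0.81 over 28 pairs and ran from 0.23 (Col1a1 with Mgp) to 0.97 (Col3a1 with Bgn). The 15 samples share animals and pools, which both enter these values. After the mean of each pool and each animal was taken out, the median was 0.57. What was left joined Col1a1 with Col1a2 (0.87) and Lum (0.85), and Col3a1 with Bgn (0.95), Dcn (0.88) and Fmod (0.79). Between these sets the values were low for Col1a1 with Col3a1 (0.13), with Bgn (0.12) and with Fmod (0.02), while Dcn with Lum stood at 0.77. The sets were read from these same values and carry no test.

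Among 4892 other genes at or above the median intensity, the 8 whose values over 15 samples were most like the mean of the collagen and proteoglycan genes were Fkbp9 (r = 0.95), Gnai3 (0.94), Mdfic (0.94), Lima1 (0.93), Ccn3 (0.92), Serpinh1 (0.92), Rell1 (0.92) and Cmtm6 (0.92). Serpinh1 encodes the collagen chaperone HSP47 and Fkbp9 a prolyl isomerase of the endoplasmic reticulum. Ccn3 encodes a secreted matricellular protein, and Gnai3 an inhibitory G protein alpha subunit.

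Other genes of the 2 families were given by their counts, and their differences were not tested against those of the genes above. Against the somatic mean, 3.44% of all probe sets were called higher and 2.09% lower. Of 8 fibrillar collagen genes measured, 3 were called higher in IML than in the somatic mean, all of them named above, and the list's median was 0.56. Of the 5 others, limma called 0, with 4 at an unadjusted p under 0.05. Col5a2, whose product joins type I fibrils as a minor chain, differed by 0.82 ± 0.26 (adjusted p = 0.0935), Col11a2 by 0.17 ± 0.06 (0.109), Col11a1 by 0.29 ± 0.11 (0.154) and Col5a1 by 0.25 ± 0.10 (0.169). Of 9 small leucine-rich proteoglycan genes, 3 were called higher, Fmod, Bgn and Lum, with a median of 0.87. Of the 5 that are not described above, limma called 0, with 1 at an unadjusted p under 0.05. This was Ogn, the osteoglycin gene, at 0.89 ± 0.32 (adjusted p = 0.136), and Omd, the osteomodulin gene, stood at 0.54 ± 0.25 (0.242). Among 14 other collagen genes, Col13a1, a transmembrane collagen, was higher (0.30 ± 0.08, adjusted p = 0.047) and Col19a1 lower (-0.39 ± 0.09, 0.0261). The type VI chains Col6a2 (0.50 ± 0.15, 0.0808) and Col6a3 (0.88 ± 0.29, 0.1) did not pass, and the list's median was 0.07.

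Genes that build collagen showed the same direction without passing the test in most cases. Of 13 collagen processing genes, all 13 were on average higher in IML than in the somatic mean, against 46.4% of all probe sets. Their median was 0.14, and beside 3.44% of all probe sets, 2 of them were called higher. These were Serpinh1 (1.03 ± 0.22, adjusted p = 0.0247) and Sparc, a collagen-binding protein of the matrix (0.63 ± 0.13, 0.0187). Lox, the lysyl oxidase that starts cross-linking, differed by 0.72 ± 0.20 (0.0603), and P3h3, a prolyl 3-hydroxylase, by 0.14 ± 0.04 (0.0683). Of 15 turnover genes with a median of 0.09, Timp3, an inhibitor of metalloproteinases, was higher (0.72 ± 0.12, 0.00958) and Mmp9, a gelatinase, lower (-0.77 ± 0.15, 0.0145). Reck, a membrane inhibitor of metalloproteinases, differed by 0.44 ± 0.11 (0.0501) and Ctsk, a collagen-cleaving cathepsin, by 0.38 ± 0.13 (0.112).

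Of 8 receptor genes for collagen and for the proteoglycans, limma called 0, with 1 at an unadjusted p under 0.05, which 20.7% of all probe sets had, and a median of 0.02. Adgrg1, which binds type III collagen, differed by 0.27 ± 0.12 (adjusted p = 0.213), and the collagen-binding discoidin receptors Ddr1 and Ddr2 by 0.08 ± 0.06 and -0.05 ± 0.04 (adjusted p = 0.5 and 0.57). Cd44, a hyaluronan receptor, differed by -0.05 ± 0.06 (0.71). In the TGF-beta pathway, 2 of 20 genes were higher and 1 lower, beside 3.44% and 2.09% of all probe sets, with a median of 0.05. The latent TGF-beta binding protein gene Ltbp1 (0.46 ± 0.09, 0.0138) and Ccn2, a target of the pathway (0.77 ± 0.15, 0.0162), were higher, the co-receptor gene Tgfbr3 was lower (-0.27 ± 0.05, 0.0165), and Tgfbi did not pass (0.76 ± 0.21, 0.0587). Of 7 genes of calcification and vitamin K-dependent proteins with a median of -0.01, Mgp and Vkorc1, which recycles vitamin K, were higher (Vkorc1 0.41 ± 0.09, 0.0278), and Gas6, another vitamin K-dependent protein, was lower (-0.56 ± 0.14, 0.0454). Ank, a pyrophosphate exporter, differed by -0.10 ± 0.07 (0.464).

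Markers of the meninges and of fibroblasts moved with these genes. Of 17 such markers measured of 18, with none of the 8 genes among them, 8 were called higher in IML than in the somatic mean, against 3.44% of all probe sets. All 17 were on average higher, against 46.4% of all probe sets, and the median was 0.51. Whether other cells of the cord also held transcripts of these markers was not tested. The smallest p belonged to Gjb2 (0.92 ± 0.12, adjusted p = 0.00238), Pdgfra (0.86 ± 0.13, 0.00563), Cp (0.89 ± 0.14, 0.00684) and Igf2 (1.18 ± 0.21, 0.0112). Against LMN, 15 of the 17 were called higher, with a median of 0.80, where 5.46% of all probe sets were called higher. LMN was on average below MMN for all 17, against 42.2% of all probe sets, with a median of -0.61 and 0 called by limma. Their summed linear intensity was 19098.8 to 28793.4 in IML, 7997.02 to 19974.8 in LMN and 10288.5 to 31327.3 in MMN samples, no value being at 0. Over the 15 samples their mean had r = 0.87 with the mean of the 8 genes, and 0.67 after pool and animal means were taken out. The LMN and MMN samples of animal 2 were the highest of their pools both for the mean of the 8 genes and for these markers. In IML the orders differed, with animal 3 highest for the 8 genes (a mean deviation of 1.64) and animal 2 for the markers. Animal 1, second in IML by the summed markers (24977), had a mean deviation of -0.15 for the 8 genes. The part of these markers in the differences was not tested.

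**Figure D4:**
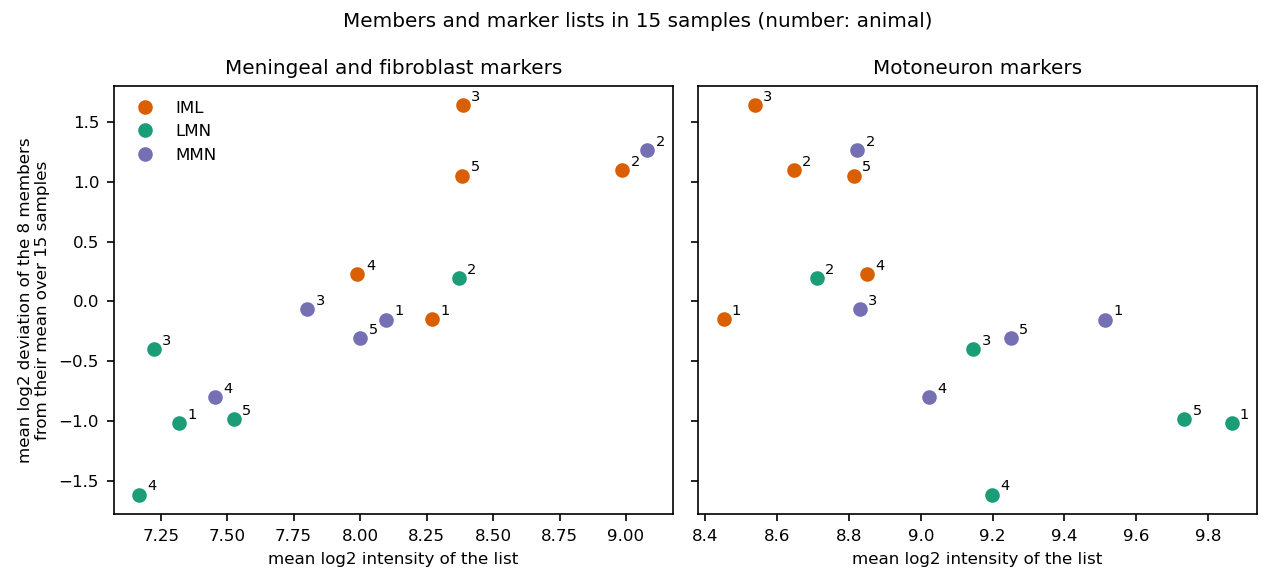
Mean log2 deviation of the 8 genes from their means over 15 samples (vertical axis) against the mean log2 intensity of 17 meningeal and fibroblast markers (left) and of 7 motoneuron markers (right), 1 point per sample with the number of its animal. The points rise together on the left (r = 0.87) and fall on the right (r = -0.67, but 0.25 once pool and animal means are taken out), and animals and pools are shared among the points.

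Motoneuron markers had r = -0.67 with the mean of the 8 genes over the 15 samples, and r = 0.25 after pool and animal means were taken out. Against LMN, 5 of these 7 markers were called lower in IML, with a median of -0.59, where 3.53% of all probe sets were called lower. Against the somatic mean 2 of 7 were called lower, beside 2.09% of all probe sets. These were the neurofilament genes Nefh (-0.83 ± 0.09, adjusted p = 0.00105) and Nefl (-0.34 ± 0.09, 0.0431). Lhx3 (-0.16 ± 0.04, 0.0509) and Nefm (-0.72 ± 0.20, 0.057) did not pass against the somatic mean, and the list's median was -0.60. Of 14 microglia and macrophage markers 7 were higher, with a median of 0.28, led by Csf1r (0.48 ± 0.07, 0.00509), Tyrobp (0.79 ± 0.13, 0.00857), C1qc (0.33 ± 0.06, 0.0134) and Mrc1 (0.76 ± 0.14, 0.0144). Their summed intensity was 2394.45 to 4040.76 in IML, 2162.04 to 2479.13 in LMN and 2171.31 to 3119.43 in MMN samples. Of 9 endothelial markers Vwf was higher (1.30 ± 0.29, 0.0269) and Cdh5 differed by 0.42 ± 0.12 (0.0705), with a median of 0.10. Of 9 astrocyte markers Fabp7 was higher (1.30 ± 0.27, 0.0205), Gja1 and Gfap differed by 0.41 ± 0.11 (0.0521) and 0.74 ± 0.20 (0.0533), and the median was 0.16. In the comparison with LMN, 8 of the 14 microglia and macrophage markers were called higher, beside 5.46% of all probe sets. There the counts were 3 of 9 for endothelial and 2 of 9 for astrocyte markers. Mural, myelin and Schwann cell markers had 0 called higher than LMN.

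Markers of the cells of vessel walls, which can also make collagen, did not pass the test. Of 11 mural markers limma called 0 against the somatic mean, with a median of 0.08. At an unadjusted p under 0.05, 3 were higher, against 10.9% of all probe sets. At that level 5 were higher in IML than in LMN (11.4% of all probe sets) and 4 lower in LMN than in MMN (5.11%). Only 2 of the 11 reached the median intensity over probe sets. Abcc9 differed from the somatic mean by 0.31 ± 0.08 (adjusted p = 0.0546), and Acta2, smooth muscle actin, by 0.38 ± 0.57 (0.785). Their summed intensity was 1035.21 to 3397.95 in IML, 940.837 to 1529.6 in LMN and 1273.98 to 3143.14 in MMN samples, and their mean had r = 0.52 with the mean of the 8 genes, and 0.62 after pool and animal means were taken out. Against the somatic mean, 0 of 9 myelin and oligodendrocyte markers were called, with 2 higher at an unadjusted p under 0.05 and a median of 0.13. Of 3 Schwann cell markers 0 were called, with 0 at an unadjusted p under 0.05 and a median of 0.29. Over the 15 samples, r with the mean of the 8 genes was 0.76 for endothelial, 0.74 for microglia and macrophage, 0.70 for astrocyte, 0.63 for oligodendrocyte and 0.46 for Schwann cell markers. After pool and animal means were taken out, the values were 0.53, 0.27, -0.58, -0.07 and 0.72 in the same order. The correlation was thus not limited to the meningeal and fibroblast list. The part of these cells in the differences of the 8 genes was not tested.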

How the data were processed

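The deposited values are intensities on a linear scale, 1 column per array. The authors normalized them with R-pack and deposited inverse logs, per the labels, and how R-pack works was not stated there. RNA was amplified in a double protocol per the labels, which can favour 3' ends. The table held 12488 probe sets, of which 66 controls were left out. Of the 12422 tested, 10833 had 1 gene symbol in the platform annotation, 396 several and 1193 none, and 10817 symbols were updated or kept through the gene identifier. The log2 of each deposited value was used, without an offset, and paired arrays of a sample were averaged. No 2 arrays held identical values.

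Models with pool and animal as fixed terms were fitted over all 15 samples with limma 3.58.1 in R 4.3.3, with eBayes, two-sided tests and Benjamini-Hochberg adjustment over all 12422 probe sets, at a threshold of 0.05. A gene with several probe sets was counted by the one with the highest mean, and from each gene list up to 4 genes with the smallest p were named. The members and lists were chosen with earlier results of these data known. The labels state that the 3 pools came from the same animals, and in all 15 pairs samples of 1 animal deviated together (correlations 0.288 to 0.747). The animals are separate biological replicates per the labels. The steps were tested on simulated data. Alternatives changed the block, the technical set, the scaling, the treatment of dim values, the variance model and the samples in the fit. No depth exists for arrays; the number of animals limits the precision. Promoters are from RefSeq, GRCm38.p6.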

Additional observations from a re-analysis of the deposited data

Results flagged for a closer look

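In 24 groups of 5 samples, 1 per gene and pool, 2 had a sample whose gap to its nearest neighbour exceeded 0.71 of the group's range, and chance gives about 1 in 20 such groups. Both samples came from animal 2. Col3a1 in the LMN sample of animal 2 was at 8.16 against 7.06 in the next LMN sample. Bgn in the MMN sample of animal 2 was at 10.53 against 9.13 in the next MMN sample. The 17 meningeal and fibroblast markers were highest in the same samples of their pools, with mean log2 values of 8.37 in LMN and 9.08 in MMN, and their part was not tested.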

How the results depend on the processing

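Across 15 alternatives, 91 of 120 differences of the 8 genes from the somatic mean kept their direction and their side of the threshold, 28 lost the call and 1 gained it (Dcn without animal 1, 1.68, adjusted p = 0.0401). Against LMN, 106 of 128 did so over 16 alternatives and 22 lost the call. For IML less MMN, 127 of 128 did so, and Mgp turned to -0.012 without animal 3 (up to 0.43 without another animal); for LMN less MMN, 125 did so and 3 gained a call. Leaving out each animal in turn gave 0 to 7 called genes against the somatic mean, 4 to 8 against LMN, and 0 in the other 2 comparisons. Over all probe sets it gave 164 to 650 calls against the somatic mean, 371 to 935 against LMN, 0 to 42 for IML and MMN, and 0 to 5 for LMN and MMN, against 686, 1116, 43 and 7. These fits hold fewer samples.

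Without the animal as a replicate block, the counts of called genes fell to 0 against the somatic mean and 0 against LMN, and those of probe sets were 46, 135, 4 for IML and MMN, and 0 for LMN and MMN. A random block gave 67 for IML and MMN and 4 for LMN and MMN. Technical set 1 alone gave 304 probe sets against the somatic mean, 601 against LMN and 9 for IML and MMN, and set 2 alone gave 713 against LMN and 3 for LMN and MMN. Leaving out dim probe sets gave 4 for LMN and MMN. A floor of 32 gave 2 called genes and 282 probe sets against the somatic mean, 717 against LMN and 10 for IML and MMN. With only the pools compared in the fit, there were 705 against LMN, 6 for IML and MMN, and 3 genes and 67 probe sets for LMN and MMN. Without the LMN sample of animal 2, IML and MMN had 21. Apart from the fits with fewer samples, the cause was not tested. Low values cannot be set against background, which limits what the dim probe sets show.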

Other observations

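Some other matrix genes were also higher in IML. Of all probe sets, 3.44% were called higher than the somatic mean and 5.46% higher than LMN. Of 14 elastic and interstitial glycoprotein genes, 3 were called higher than the somatic mean and 7 higher than LMN. Postn, the collagen-binding periostin, was higher than the somatic mean by 1.32 ± 0.19 (SE, n = 5, adjusted p = 0.00509 in limma), Vtn, vitronectin, by 0.75 ± 0.13 (0.00958) and Eln, elastin, by 0.55 ± 0.10 (0.0126), while Thbs2 did not pass (0.31 ± 0.08, 0.0607). Postn was also called higher than MMN (1.24 ± 0.22, adjusted p = 0.046), and was not tested against the 8 genes, of which Lum had a difference of 1.26 from MMN without passing. Of 19 basement membrane genes, 3 were higher than the somatic mean and 8 higher than LMN, with Nid1 at 0.59 ± 0.08 (0.00276), Col15a1 at 0.46 ± 0.08 (0.00958) and Col18a1 at 0.25 ± 0.05 (0.0138), while Lamb1 did not pass (1.01 ± 0.27, 0.0545). Of 10 genes of the neural matrix, 2 were higher than the somatic mean, Reln, whose product reelin guides neuronal migration (1.31 ± 0.21, 0.00756), and Tnc, tenascin C (0.58 ± 0.13, 0.0243). Vcan, a large proteoglycan (0.46 ± 0.12, 0.0519), and Ncan (-0.12 ± 0.06, 0.309) did not pass.

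In the order of genes on the GRCm38.p6 assembly, Dcn and Lum lie side by side on chromosome 10, followed by Kera, and Col3a1 lies beside Col5a2 on chromosome 1. Kera, which encodes another proteoglycan of the family, differed between IML and the somatic mean by -0.04 ± 0.05 (adjusted p = 0.763), with a mean log2 value of 3.80, so low that the probe set may show no transcript. The measured neighbours from outside the 2 families were not called: Sgca beside Col1a1 (-0.14 ± 0.05, adjusted p = 0.102), Bet1 beside Col1a2 (-0.11 ± 0.04, 0.125) and Btg2 beside Fmod (0.11 ± 0.06, 0.388).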
